A study of Mus musculus with 10 samples.

Results

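The 10 immediate-early genes examined here were Egr1, Egr2, Fos, Fosb, Jun, Junb, Ier2, Ier3, Atf3 and Nr4a1, out of 24015 genes counted in each library. They are a list of names, selected on the levels in these same libraries, in second 2i above all. The levels are therefore given as a description, with standard errors or, for Egr2, counting intervals, and without p-values. The cells were mouse embryonic stem cells with a built-in reporter for the Wnt/β-catenin pathway, and 10 RNA-seq libraries form 5 groups of 2. All cells were grown on gelatin with leukaemia inhibitory factor (LIF) and were split about every 48 h. 2i combines a pair of kinase inhibitors, here one of GSK3 at 3 µM and one of the ERK pathway, PD, at 1 µM.

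The serum group had never been moved to 2i as far as the labels say. First 2i had 5 to 6 passages in 2i, and long 2i had more than 13. Serum return had more than 13 passages in 2i and then 6 in serum. Second 2i had 13 passages in 2i, 6 in serum and 4 to 5 more in 2i. Whether second 2i came from the serum return cells sequenced here is not stated, nor whether the 2 libraries of a group came from separate cultures. P-values for other genes therefore rest on a spread between libraries that may be technical.

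Immediate-early genes are transcribed within minutes of a growth-factor, stress or depolarising signal, by transcription factors that are already present in the cell, and without new protein synthesis. Serum response factor (SRF) with its ternary complex partners such as Elk1, which ERK phosphorylates, and CREB are the best known of these factors. Most of the products are themselves transcription factors or regulators that shape the next wave of transcription, and their mRNAs are short-lived. In serum cultures of embryonic stem cells, autocrine FGF4 keeps ERK active, and 2i contains an inhibitor of that pathway.

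Libraries held 16809070 to 27766338 gene counts, and levels are in CPM, which scales counts to a common library size. Of the 10 genes 9 passed the filter on low counts, and Egr2 did not. Where groups or libraries are said not to overlap, the share of all genes that did the same was not counted unless it is given. The pluripotency factors that define these cells were abundant in second 2i, with Pou5f1 at 1340 ± 42 CPM, Nanog at 1292 ± 3.8 CPM and Sox2 at 614.5 ± 4.2 CPM (SD, n = 2). Summed levels of 10 fibroblast and feeder markers lay at 17.3 to 19.1 CPM in second 2i, 40.2 to 46.4 CPM in serum return and 8.77 to 11.5 CPM in first 2i. Most of the second 2i sum was Pdgfrb, at 14.1 ± 0.85 CPM, against 13.1 ± 0.25 CPM in serum return and 7.38 ± 0.87 CPM in first 2i. Thy1 went down from 22.3 ± 1.2 CPM in serum return to 0.673 ± 0.28 CPM in second 2i. Lum and S100a4 had no counts in second 2i and were low in every group. Of the other markers Col1a1 had 52 counts in second 2i, Pdgfra 36, Dcn 20, Col1a2 14, Col3a1 5 and Postn 1. Dcn and Col3a1 had no counts in 1 library of every group. In the other library Dcn had 1.09 CPM in second 2i and 2.48 CPM in serum return. The sum of 10 endoderm and mesoderm markers was 21.1 to 23.3 CPM in second 2i, 62.8 to 63.4 CPM in serum return and 28.5 to 29.3 CPM in first 2i, and Hand1 and Mesp1 had no counts in second 2i. Most of the second 2i sum was Eomes, at 15.2 ± 1.2 CPM, against 16.5 ± 0.29 CPM in serum return. Sox7 stood at 0.485 ± 0.24 CPM in second 2i, against 36.5 ± 0.54 CPM in serum return. Gata6 stood at 0.373 ± 0.22 CPM, against 5.99 ± 0.15 CPM. T went the other way, with 77 counts in second 2i and 5 in serum return. In second 2i against serum return 1 of the 7 tested was called higher and 2 lower, while 4 were not called. The sum of 10 blood and endothelium markers, which includes 81.5 CPM of Pecam1 in second 2i, was 110.7 to 114.4 CPM in second 2i, 91.0 to 99.6 CPM in serum return and 139.8 to 151.7 CPM in first 2i. Ptprc had 0 counts in second 2i and at most 1 in any group. Against serum return Cd68 stood at 26.0 ± 1.0 and 17.6 ± 2.0 CPM, Kdr at 2.38 ± 0.21 and 0.391 ± 0.16 CPM, and Cdh5 at 0.109 ± 0.15 and 4.27 ± 0.71 CPM. Of the 6 markers tested 3 were called higher and 2 lower there (32.3% and 33.3% of all genes). The part of these markers in the levels below was not tested. Rn45s, which encodes the precursor of ribosomal RNA, had 2496 CPM in replicate 1 and 15476 CPM in replicate 2 of serum return, so these libraries stood apart from each other. For the tested members in second 2i against serum return the range over all alternatives, each library left out in turn among them, is therefore given.

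The 250 bases before the annotated start were read from RefSeq for the 8 genes with an entry (GRCm38.p6), and 4 of the 5 that hold the motif most of these windows shared are shown, from 2 genes that stood higher and 2 that stood lower in second 2i than in serum return. That motif is TGACG on either strand, a shortened form of the CREB site TGACGTCA, which reads CGTCA on the other strand. Capitals mark TGACG, the Egr site GCGNGGGCG and, in Fos alone, TATAAA. The windows lie at chr12:85473640-85473889 on the plus strand for Fos, chr7:19310046-19310295 on the minus strand for Fosb, chr8:84978749-84978998 on the minus strand for Junb and chr15:101266596-101266845 on the plus strand for Nr4a1, each written along its gene.
Fos: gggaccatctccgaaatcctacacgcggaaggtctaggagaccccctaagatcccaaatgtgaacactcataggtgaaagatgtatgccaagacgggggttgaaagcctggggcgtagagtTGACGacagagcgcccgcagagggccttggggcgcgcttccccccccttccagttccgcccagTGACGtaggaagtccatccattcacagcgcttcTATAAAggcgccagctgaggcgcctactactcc
Fosb: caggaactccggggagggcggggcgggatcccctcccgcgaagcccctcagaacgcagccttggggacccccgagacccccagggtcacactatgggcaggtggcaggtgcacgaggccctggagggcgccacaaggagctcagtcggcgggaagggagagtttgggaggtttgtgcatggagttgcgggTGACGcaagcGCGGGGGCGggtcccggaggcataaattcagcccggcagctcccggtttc
Junb: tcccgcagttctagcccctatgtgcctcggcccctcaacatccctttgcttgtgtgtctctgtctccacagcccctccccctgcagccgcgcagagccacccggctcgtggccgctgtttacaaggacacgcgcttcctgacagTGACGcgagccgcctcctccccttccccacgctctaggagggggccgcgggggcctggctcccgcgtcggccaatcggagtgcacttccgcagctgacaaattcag
Nr4a1: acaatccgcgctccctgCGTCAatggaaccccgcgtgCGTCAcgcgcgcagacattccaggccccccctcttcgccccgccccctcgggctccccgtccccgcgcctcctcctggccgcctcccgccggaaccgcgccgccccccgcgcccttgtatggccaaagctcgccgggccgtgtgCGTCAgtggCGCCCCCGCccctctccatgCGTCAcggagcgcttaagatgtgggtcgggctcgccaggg

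TGACG was found in 5 of the 8 windows (Fos, Fosb, Junb, Atf3 and Nr4a1), and in 20.8% of all 16775 windows of the same length. In Fos it began 129 and 66 bases before the start, in Fosb 60, in Junb 106, and in Nr4a1 it occurred 4 times between base 233 and base 36. The Egr site occurred in Fosb, 50 to 42 bases before the start, and in Nr4a1, 60 to 52 bases before it, and in 6.4% of all windows. TATAAA occurred in Fos, 33 to 28 bases before the start, and in 11.9% of windows. The full site TGACGTCA, the AP-1 site TGANTCA and the CArG box bound by SRF were in 0 of the 8 windows, against 2.07%, 6.4% and 1.31% of all windows. Windows of this length reach only part of a promoter, and a match or its absence is a matter of letters alone. Fos and Fosb, the pair with the largest fold changes against serum return, carried the motif, and so did Junb and Nr4a1, which were lower in second 2i than in serum return.

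**Figure D1:**
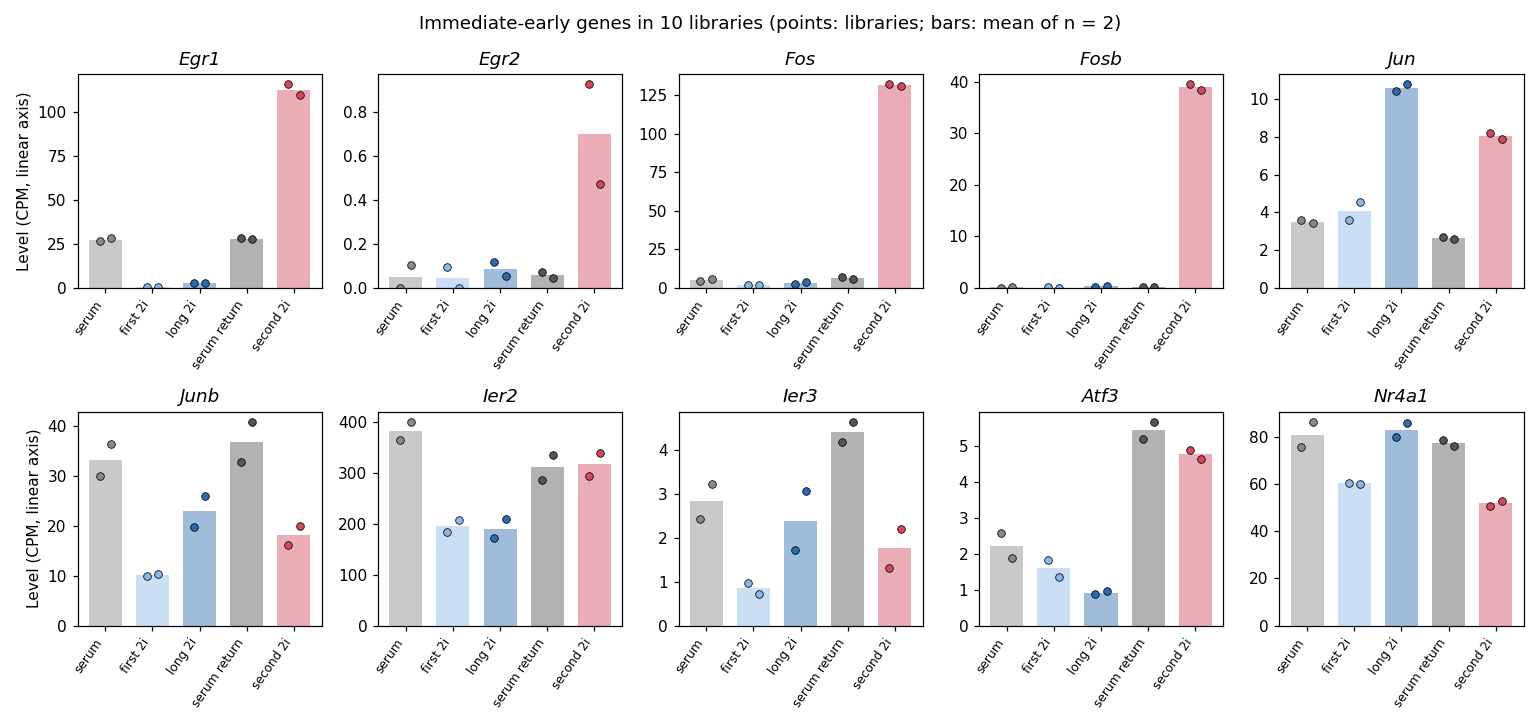
Level of each of the 10 genes in CPM (vertical, linear axes that differ in scale) in the 5 culture groups (horizontal, in order of culture). Points are libraries and bars are means of n = 2. Egr1, Fos and Fosb stand far higher in second 2i than elsewhere, at 113, 131 and 39.0 CPM, while Jun is highest in long 2i and Nr4a1 is lowest in second 2i.

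Egr1 encodes a zinc finger transcription factor that is the standard readout of ERK signalling. It had 26.6 and 28.5 CPM in serum, 0.421 and 0.438 in first 2i, 2.78 and 2.96 in long 2i, 28.4 and 27.7 in serum return, then 116 and 109.8 in second 2i. Counts behind the first 2i values were 9 in each library. Both second 2i libraries lay above every other library, and the first 2i libraries lay below every other, with only serum and serum return overlapping. Fitted folds were 4.02 over serum return (log2 fold change 2.01 ± 0.07, SE), 259 over first 2i (8.02 ± 0.13) and 39.2 over long 2i (5.29). In the first exposure the direction was opposite, with Egr1 63.3-fold lower in first 2i than in serum (-5.98 ± 0.16). Between those points it was 6.61-fold higher in long 2i than in first 2i, still in the same medium.

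Egr2, a relative of Egr1 known from hindbrain and myelin development, was close to the detection limit. Its counts were 0 and 2 in serum, 2 and 0 in first 2i, 2 and 1 in long 2i, 2 and 1 in serum return, then 17 and 9 in second 2i. The second 2i libraries were again the highest. Over both libraries the 26 counts of second 2i against 3 of serum return gave a ratio of 11.5 (exact 95% interval 3.51 to 59.2, counting error only). Against the 2 counts of first 2i the ratio was 14.6 (3.66 to 126.9). Both intervals pool the libraries of a group and use the counts that chose the gene, so they are no test. Egr3, another relative, had 3 counts in second 2i against 13 in serum return.

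Fos and Fosb encode partners of the Jun proteins in the dimeric factor AP-1. Fos had 4.50 and 5.58 CPM in serum, 1.82 and 1.66 in first 2i, 2.78 and 3.69 in long 2i, 6.96 and 5.72 in serum return, then 132 and 131 in second 2i. No 2 groups overlapped for Fos, and the groups stood in the order first 2i, long 2i, serum, serum return, second 2i, which is also the order of Egr1. The spread among the first 4 groups was small beside the step to second 2i, 20.5-fold over serum return (4.36 ± 0.11), 75.1-fold over first 2i (6.23 ± 0.13) and 40.2-fold over long 2i. In the first exposure Fos was lower, by 1.52 on the log2 scale (SE 0.19).

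Fosb was almost silent outside second 2i. It had 0 and 0.261 CPM in serum, 0.140 and 0.0487 in first 2i, 0.236 and 0.422 in long 2i, 0.287 and 0.140 in serum return, then 39.5 and 38.4 in second 2i. In counts these were 725 and 729 in second 2i and 0 to 8 in each of the other 8 libraries. The 4 low groups overlapped with their neighbours and could not be ordered. The fitted folds, 170 over serum return (7.41 ± 0.25) and 384 over first 2i (8.58 ± 0.29), rest on 11 and 4 counts in those groups. With each library left out in turn the log2 fold change ran between 7.06 and 8.06 over serum return and between 8.06 and 9.47 over first 2i, the extremes coming without a library of the low group. Of the other Fos-family genes Fosl1 had 1 count in second 2i, against 4 in serum return. Fosl2 did not share the increase either, at 0.325 ± 0.31 CPM in second 2i, against 3.79 ± 0.034 CPM in serum return (log2 fold change -3.53, edgeR adjusted p = 5.51e-08).

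The Jun family behaved otherwise. Jun, the founding partner in AP-1, had 3.59 and 3.44 CPM in serum, 3.60 and 4.53 in first 2i, 10.4 and 10.8 in long 2i, 2.69 and 2.61 in serum return, then 8.17 and 7.86 in second 2i. It was 3.02-fold higher in second 2i than in serum return (1.59 ± 0.16) but was highest in long 2i, from which second 2i differed by a log2 fold change of -0.40. No 2 groups overlapped. Jun's transcript overlaps Junos on the opposite strand, and as the strand setting of the counting is not given in the sources used here, reads of the 2 genes cannot be told apart.

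Junb, which can dampen Jun activity, differed between the media and also between 2i groups. It had 30.0 and 36.3 CPM in serum, 9.96 and 10.3 in first 2i, 19.7 and 26.0 in long 2i, 32.6 and 40.8 in serum return, then 16.2 and 19.9 in second 2i. All serum and serum return libraries lay above all 2i libraries, and how many other genes did so was not counted. The log2 fold change of Junb was -1.02 ± 0.15 in second 2i against serum return and -1.71 ± 0.16 in first 2i against serum. Within 2i it was 1.18 ± 0.17 in long against first 2i. Jund, the third Jun gene, had 64.9 ± 17 CPM in second 2i and 84.2 ± 30 CPM in serum return. Its libraries overlapped, at 53.0 and 76.8 CPM against 62.7 and 105.6 CPM. It did not pass with group as the only term (edgeR adjusted p = 0.527), a fit that does not pair the libraries.

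Ier2 and Ier3 are named for their rapid induction, and Ier3 is known as a regulator of survival. Ier2 was the most abundant of the 10 genes per length of transcript in each group. It had 365 and 401 CPM in serum, 184 and 207 in first 2i, 172 and 209 in long 2i, 287 and 336 in serum return, then 294 and 340.1 in second 2i. Second 2i thus overlapped with serum return and lay above both earlier 2i groups, with log2 fold changes of 0.03 ± 0.13 against serum return and 0.70 against first 2i. Ier3 had 2.44 and 3.23 CPM in serum, 0.982 and 0.730 in first 2i, 1.71 and 3.06 in long 2i, 4.20 and 4.65 in serum return, then 1.31 and 2.21 in second 2i. Ier3 was lower in second 2i than in serum return (-1.32 ± 0.27) and lower in first 2i than in serum (-1.71 ± 0.33), as was Junb.

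Atf3, a stress-inducible repressor of the ATF/CREB family, separated serum return and second 2i from the rest. It had 2.58 and 1.88 CPM in serum, 1.82 and 1.36 in first 2i, 0.887 and 0.950 in long 2i, 5.20 and 5.68 in serum return, then 4.90 and 4.64 in second 2i. No 2 groups overlapped. Atf3 was the one tested member at least 2-fold higher in serum return than in serum (1.27 on the log2 scale), where 3.68% of all tested genes were, and 0 were at least 2-fold lower (1.69% of all genes). Without replicate 2 of serum or of serum return 2 members were higher. Second 2i stayed within 0.18 of serum return on that scale (-0.18 ± 0.18) and stood 2.37 above long 2i.

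Nr4a1, an orphan nuclear receptor also called Nur77, had the narrowest range. It had 75.5 and 86.3 CPM in serum, 60.4 and 60.0 in first 2i, 79.7 and 85.8 in long 2i, 78.6 and 76.2 in serum return, then 50.7 and 52.9 in second 2i. It was lowest in second 2i, where Egr1, Fos and Fosb were highest, with a log2 fold change of -0.58 ± 0.07 against serum return. Its highest group mean was 1.60 times its lowest, against 263 times for Egr1, 75.5 times for Fos and 412 times for Fosb.

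Levels per kilobase of coding transcript (GENCODE M21) put the genes on a scale on which they can be set side by side. In second 2i Ier2 led at 208 CPM per kb, followed by Fos at 62.3, Egr1 at 25.2, Nr4a1 at 20.3, Fosb at 10.3 and Junb at 9.97. In first 2i Ier2 at 128 CPM per kb and Nr4a1 at 23.6 led, Junb followed at 5.61, and Fos stood at 0.825, Egr1 at 0.0958 and Fosb at 0.0250. On this scale the Fos level in second 2i exceeded that of Jun, at 2.51, and of Junb, whereas in first 2i Fos stood below both, with Jun at 1.27. In bulk RNA a change in the share of cells that express a gene and a change in the RNA per cell cannot be told apart.

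**Figure D2:**
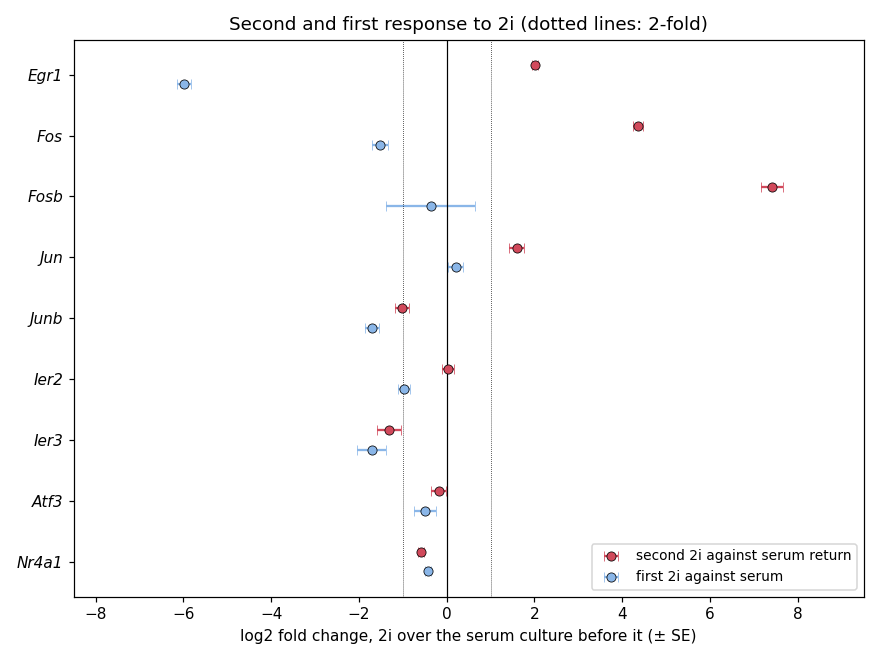
Log2 fold change (horizontal, ± SE) of the 9 tested genes (vertical) in second 2i over serum return (red, upper point of each pair) and in first 2i over serum (blue, lower point), with dotted lines at 2-fold. Egr1 and Fos lie to the right of 0 in the second exposure (2.01 and 4.36) and to the left in the first (-5.98 and -1.52), while Junb and Ier3 lie to the left in both.

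Egr1 and Fos stood lower in the first exposure and higher in the second. Their groups did not overlap in either, and the share of all genes that did so was not counted. The fitted values of Fosb (7.41 in the second, -0.37 in the first) and Ier2 (0.03 and -0.97) also differed in sign, but the Fosb libraries overlapped in the first exposure and the Ier2 libraries in the second. The second-response values minus the first-response values were 7.99 ± 0.17 for Egr1 and 5.88 ± 0.21 for Fos on the log2 scale, with all 4 library pairs higher in the second exposure and all 4 lower in the first. For Fosb the difference was 7.78 ± 1.39, and it was 3.35 without replicate 2 of serum, which leaves serum with 0 counts of Fosb. It was 1.39 for Jun, 0.999 for Ier2, 0.69 for Junb, 0.39 for Ier3, 0.30 for Atf3 and -0.15 for Nr4a1. Of all tested genes 70% were called changed in the first exposure and 65.6% in the second. The differences of the members were not tested, since the levels chose the genes. The difference was at least 2-fold upward for 4 of the 9 (Egr1, Fos, Fosb and Jun) and downward for 0, where 5.97% and 8.52% of all tested genes passed that size.

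In second 2i against serum return 4 of the 9 tested genes (Egr1, Fos, Fosb and Jun) were at least 2-fold higher and 2 (Junb and Ier3) at least 2-fold lower, where 9.71% and 13.5% of all 14220 tested genes were. The count of lower genes was 1 without replicate 2 of serum return and 0 without replicate 1 of second 2i. Over all alternatives the log2 fold change ran between 1.97 and 2.05 for Egr1, 4.24 and 4.52 for Fos, 7.06 and 8.06 for Fosb, -1.17 and -0.85 for Junb and -1.75 and -0.99 for Ier3. For the others it ran between 1.57 and 1.62 for Jun, -0.08 and 0.14 for Ier2, -0.25 and -0.12 for Atf3 and -0.61 and -0.55 for Nr4a1. In second against first 2i 5 genes (Egr1, Fos, Fosb, Ier3 and Atf3) were at least 2-fold higher and 0 lower, against 4.86% and 4.75% of all genes. In second against long 2i 4 genes (Egr1, Fos, Fosb and Atf3) were higher and 0 lower (10.6% and 6.59% of all genes). In second 2i against serum 5 genes (Egr1, Fos, Fosb, Jun and Atf3) were higher and 0 lower (11.4% and 13% of all genes), and 1 gene was lower without replicate 1 of serum and 2 without replicate 2 of second 2i. Nothing is read from these counts, since the same values chose the genes, and the comparisons share the second 2i libraries.

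In first 2i against serum 0 genes were at least 2-fold higher and 4 (Egr1, Fos, Junb and Ier3) lower, where 13.1% and 13.8% of all genes were. Without replicate 2 of serum 1 gene was higher. In long against first 2i 5 genes (Egr1, Fosb, Jun, Junb and Ier3) were higher and 0 lower (7.75% and 11.9% of all genes), and 3 were higher without replicate 2 of long 2i. In serum return against long 2i 2 genes (Egr1 and Atf3) were higher and 1 (Jun) lower (17.3% and 10.6% of all genes). Without replicate 2 of long 2i 4 genes were higher there, and without replicate 1 of serum return 2 were lower. Both second 2i libraries lay above all 8 other libraries for Egr1, Egr2, Fos and Fosb, of which 3 were among the genes tested, and for 7.28% of all tested genes. The median log2 fold change of the 9 genes in second 2i against serum return was 0.03, and -0.0018 over all tested genes, with 5 of the 9 values above 0 and 4 below.

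Other immediate-early and early response genes, a list of 39 from textbook knowledge of which 34 were tested, were examined with the edgeR quasi-likelihood test and Benjamini-Hochberg adjustment over all genes. In second 2i against serum return 5 rose and 19 fell, while 10 were not called (list median -0.41 on the log2 scale), where 65.6% of all genes changed, 32.3% higher and 33.3% lower. Phlda1, a regulator of apoptosis, fell to 1.87 ± 0.49 CPM in second 2i, against 11.2 ± 1.7 CPM in serum return. Maff, a small Maf transcription factor, fell to 5.20 ± 0.12 CPM, against 15.6 ± 0.30 CPM, and Bhlhe40, a circadian repressor, to 55.8 ± 1.8 CPM, against 145 ± 3.4 CPM. Cebpb, a bZIP factor, fell by 2.11 on the log2 scale. Dusp1, a phosphatase of MAP kinases, rose to 54.7 ± 1.2 CPM in second 2i, against 41.0 ± 2.8 CPM in serum return. Sgk1, a serum- and glucocorticoid-inducible kinase named after its values were seen, rose to 690.4 ± 0.18 CPM, against 395 ± 9.3 CPM.

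On first entry to 2i, in first 2i against serum, 5 of the 34 rose and 19 fell (list median -0.50), where 70% of all genes changed, 35.1% higher and 34.9% lower. In long against first 2i 11 rose and 11 fell, where 61.2% of all genes changed, 30.4% higher and 30.8% lower. In second against first 2i 7 of these 34 genes rose and 6 fell, while 21 were not called (list median 0.06, also with Dusp2 at its bound), where 37.7% of all genes changed, 18.1% higher and 19.6% lower. Csrnp1, a nuclear protein induced by growth signals, rose to 33.5 ± 2.4 CPM in second 2i, against 22.1 ± 0.48 CPM in first 2i. The antiproliferative gene Btg1 fell to 34.2 ± 0.19 CPM, against 57.9 ± 1.5 CPM, and Btg2 fell by 0.63 on the log2 scale. The median of all genes was 0.0023. The highest fitted log2 fold change in the list was 4.21 for Dusp2, below those of Egr1, Fos and Fosb, and it rests on 4 counts in second 2i and 0 in first 2i (edgeR adjusted p = 0.0955).

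**Figure D3:**
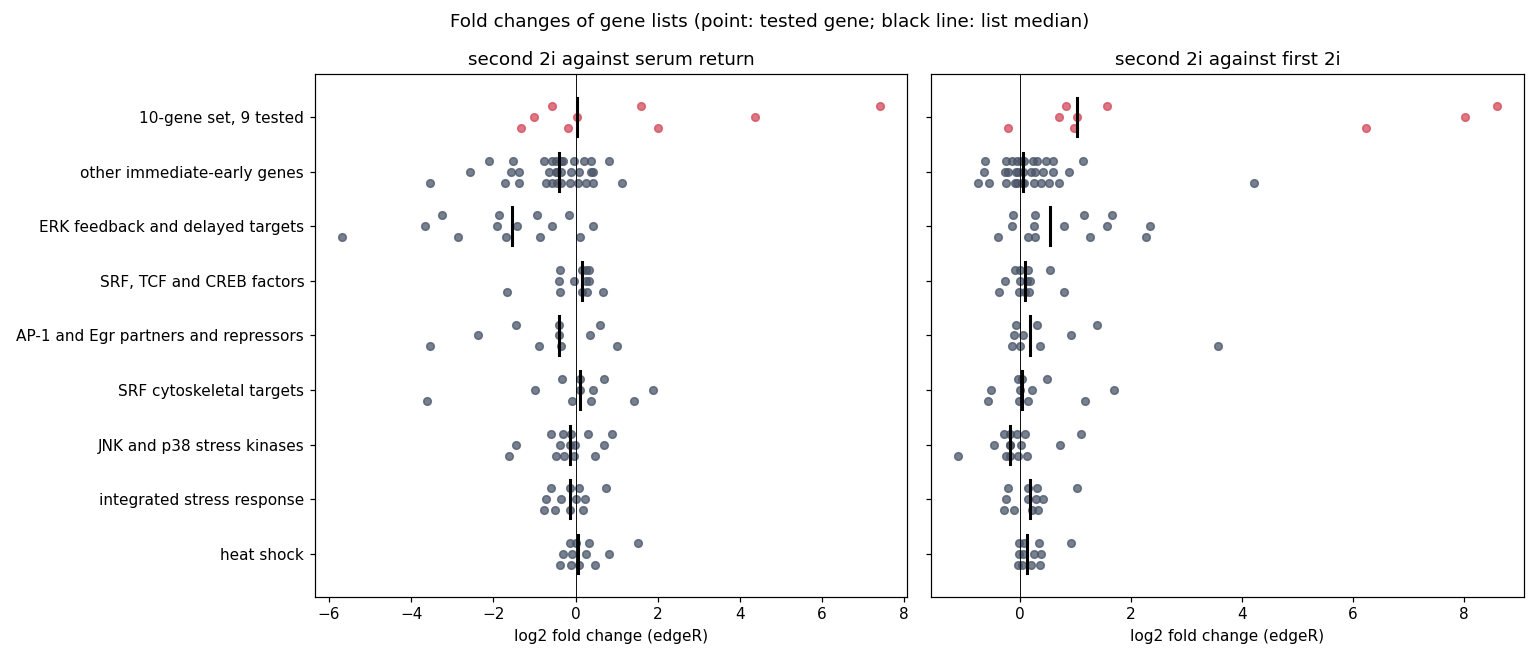
Log2 fold change (horizontal) of each tested gene in 9 gene lists (vertical) in second 2i against serum return (left) and against first 2i (right), with a black line at each list's median. Fosb, Fos and Egr1 (red) lie to the right of every gene of the other lists, ERK feedback genes have medians of -1.56 on the left and 0.53 on the right, and Dusp2 and Batf2, at 4.21 and 3.56 on the right, have 0 and 1 counts in first 2i.

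The feedback and delayed targets of ERK, 14 genes that sustained ERK activity is known to keep up, were set beside the members because ERK is known to induce both. In second 2i against serum return 11 fell and 1 (Spred3) rose, while 2 were not called (list median -1.56). Of all genes 33.3% fell and 32.3% rose there. The rise of Spred3 was lost without replicate 1 of serum return or replicate 2 of second 2i, and 2 genes rose without replicate 1 of first 2i or either library of long 2i. Spry4, a feedback inhibitor of receptor signalling, fell 51.5-fold to 8.74 ± 0.51 CPM in second 2i, against 450.6 ± 14 CPM in serum return. Dusp6, a phosphatase of ERK itself, fell to 19.3 ± 0.83 CPM, against 184.8 ± 5.6 CPM (edgeR adjusted p = 1.7e-18), Etv4, an ETS factor, to 22.4 ± 0.062 CPM, against 283 ± 13 CPM, and Myc to 11.2 ± 0.26 CPM, against 81.0 ± 1.1 CPM. These 4 targets were thus low in the same libraries in which Egr1, Fos and Fosb were high.

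In first 2i against serum 13 of the 14 had fallen and 0 had risen (list median -1.92), where 34.9% and 35.1% of all genes had. In long against first 2i 11 rose and 2 fell (1.08), where 30.4% and 30.8% of all genes did. In second against first 2i 9 of the 14 rose and 0 fell (18.1% and 19.6% of all genes), while 5 were not called (list median 0.53). Spry4 stood at 8.74 ± 0.51 CPM in second 2i, against 1.71 ± 0.29 CPM in first 2i, a 5.07-fold difference, and Etv4 was 4.85-fold higher. Dusp6 had 19.3 ± 0.83 CPM in second 2i and 17.4 ± 2.5 CPM in first 2i (edgeR adjusted p = 0.212). The fall on entry to 2i was tested between the exposures, and 9 of the 14 had a higher second response and 0 a lower one (list median 0.87), where 39.4% of all genes differed, 18.4% upward and 21% downward. Without replicate 2 of serum or replicate 1 of first 2i 1 of the 14 had a lower second response. Spry4 differed by 2.20 and Ccnd1, cyclin D1, by 1.62 on the log2 scale (edgeR adjusted p = 1.61e-09 and 1.52e-11).

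Among kinases and GTPases of the ERK cascade 4 of 17 rose and 8 fell in second 2i against serum return (32.3% and 33.3% of all genes). Against first 2i 3 rose and 3 fell (18.1% and 19.6% of all genes). Without replicate 1 of serum return 2 rose against serum return, and without replicate 2 of second 2i 1 fell against first 2i. Mapk3 (ERK1) had 50.5 ± 0.39 CPM in second 2i, 80.0 ± 6.7 CPM in serum return and 59.4 ± 1.5 CPM in first 2i. It fell against serum return, and the RSK kinase gene Rps6ka2 fell by 1.37 on the log2 scale. Levels of mRNA do not report the activity of these kinases.

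Factors known to act at immediate-early promoters went both ways, as did all genes. Of 13 genes for SRF, its partners and CREB 5 rose and 4 fell in second 2i against serum return (32.3% and 33.3% of all genes). Against first 2i 2 rose and 2 fell (18.1% and 19.6% of all genes). Against serum return 3 rose without either library of serum return or replicate 2 of second 2i. Against first 2i 1 rose without replicate 1 of first 2i or replicate 2 of second 2i, and 1 fell without replicate 2 of first 2i or replicate 1 of second 2i. Srf had 47.6 ± 5.6 CPM in second 2i and 39.8 ± 4.5 CPM in serum return, which did not pass (edgeR adjusted p = 0.16). It rose against the 32.9 ± 4.8 CPM of first 2i (0.54, adjusted p = 0.0265), a call lost without replicate 1 of first 2i or replicate 2 of second 2i, with adjusted p up to 0.163. Elk1 rose to 42.7 ± 1.2 CPM in second 2i, against 33.8 ± 1.6 CPM in serum return. Elk3, a partner that can repress, fell to 22.9 ± 1.1 CPM, against 72.8 ± 0.99 CPM. Creb1 fell by 0.38 on the log2 scale.

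The corepressors Nab1 and Nab2 bind Egr factors, and Nab2 is itself known as an Egr1 target. Nab1 fell to 18.9 ± 0.97 CPM in second 2i, against 51.8 ± 0.15 CPM in serum return, and Nab2 fell to 20.3 ± 2.6 CPM, against 27.0 ± 1.4 CPM. Against the 10.7 ± 0.81 CPM of first 2i Nab2 rose (0.93 on the log2 scale, edgeR adjusted p = 2.37e-06), while Nab1, at 19.8 ± 0.36 CPM in first 2i, did not pass. In the list of AP-1 and Egr partners as a whole 3 of 10 tested genes rose and 5 fell against serum return (32.3% and 33.3% of all genes). Against first 2i 3 rose and 0 fell (18.1% and 19.6% of all genes), and 1 fell without replicate 1 of second 2i.

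Cytoskeletal targets of SRF and its actin-regulated cofactors included increases and decreases. Of 11 tested genes 5 rose and 2 fell in second 2i against serum return (32.3% and 33.3% of all genes). Against first 2i 4 rose and 2 fell (18.1% and 19.6% of all genes). The secreted matrix protein gene Cyr61, also an early response gene, rose to 27.6 ± 1.1 CPM in second 2i, against 7.47 ± 0.30 CPM in serum return, and it had 8.56 ± 0.40 CPM in first 2i. Ctgf, its relative, rose to 49.3 ± 0.68 CPM, against 18.3 ± 1.6 CPM in serum return and 21.8 ± 0.26 CPM in first 2i. Actb rose by 0.70 on the log2 scale against serum return, and the calponin gene Cnn2 fell by 0.99.

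Lists of stress genes were set beside these values because handling and stress are known to induce the same early genes. Of 12 heat-shock genes 4 rose and 2 fell in second 2i against serum return (32.3% and 33.3% of all genes). Against first 2i 6 rose and 0 fell (18.1% and 19.6% of all genes). The count that fell against serum return was 1 without replicate 1 of that group or without either library of second 2i. The summed level of the 12 genes was 10607 to 10786 CPM in second 2i, 10931 to 11627 CPM in serum return and 10420 to 10759 CPM in first 2i. Most of each sum was Hsp90ab1, at 6940 ± 40 CPM, 7602 ± 300 CPM and 7027 ± 162 CPM in that order, so the sums say little about the other genes. The strongly inducible Hspa1b had 3.30 ± 0.11 CPM in second 2i and 2.64 ± 0.18 CPM in serum return (edgeR adjusted p = 0.169), and it rose against the 1.74 ± 0.25 CPM of first 2i. Hspa1a did not pass in either comparison, at 0.376 ± 0.084 CPM in second 2i. Bag3, a cochaperone, rose to 88.2 ± 3.5 CPM, against 30.9 ± 1.2 CPM in serum return, but had 84.4 ± 5.9 CPM in first 2i.

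Of 12 genes of the integrated stress response, of which Atf3 is a known target, 3 rose and 5 fell in second 2i against serum return (32.3% and 33.3% of all genes). Against first 2i 5 rose and 3 fell (18.1% and 19.6% of all genes). Without replicate 2 of second 2i 1 rose against serum return. Against first 2i 3 rose without replicate 2 of first 2i or of second 2i, and 1 fell without replicate 1 of either group. Atf4, the central factor, had 704 ± 13 CPM in second 2i and 666 ± 28 CPM in serum return, which did not pass, and Ddit3 (CHOP) rose to 59.2 ± 3.3 CPM, against 50.2 ± 1.6 CPM. The call for Ddit3 was lost without replicate 2 of serum return or of second 2i (adjusted p up to 0.0834). Among 15 JNK and p38 kinase genes and their activators 4 rose and 8 fell against serum return (32.3% and 33.3% of all genes). Against first 2i 2 rose and 4 fell (18.1% and 19.6% of all genes), and 2 fell without replicate 2 of second 2i. Gadd45b, an activator of p38 and JNK signalling, rose against first 2i to 21.2 ± 2.6 CPM, against 9.87 ± 0.46 CPM. Gadd45a fell to 8.18 ± 0.76 CPM, against 22.2 ± 0.050 CPM in serum return.

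Genes whose pattern over the 10 libraries was most like that of a member were sought by Pearson correlation of log2 CPM, among 3574 genes with at least 5 CPM and 2-fold between group means. The 10 points are 5 groups of 2 libraries, so r describes few separate conditions. Most like Egr1 were Nin (r = 0.95), Tet2 (0.93), Itga3 (0.92), Rnpep (0.91) and Pop1 (0.90). Among the 5 genes most like Fos were Tmem181b-ps (0.93), Dusp27 (0.91), Nin (0.87) and Slc43a3 (0.84). Tet2, a 5-methylcytosine dioxygenase, had 292 CPM in second 2i, 329.9 CPM in serum return and 126 CPM in first 2i, a far narrower range than that of Egr1.

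The genes were also described by their structure. In GENCODE M21 they had a median of 2 exons (1 to 8), against 7 over 19636 genes, and 9 of the 10 had 5 exons or fewer, as did 39.1% of all genes. Their median gene span was 4698.5 bases (1240 to 47744), against 18249.5 over all genes. Atf3, at 47744 bases, and Nr4a1, at 20527, were longer than that median. At least 3 copies of ATTTA, the core of the elements known to destabilise early-gene mRNAs, followed the stop codon in 6 of the 10 (Egr2, Fos, Jun, Ier3, Atf3 and Nr4a1), and in 31.6% of all genes. Fos had 4 copies, Jun 4, Ier3 5, Fosb 1 and Ier2 0. The genes highest in second 2i thus included some with and some without several copies.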

How the data were processed

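Total RNA from mouse embryonic stem cells was sequenced as 10 libraries, grouped by the culture medium in the labels. The tables the authors deposited hold raw read counts by gene symbol. The submitters' processing notes name HTSeq 0.5.4p5, TopHat2 2.0.4, CASAVA 1.8.2 and DESeq2, with mouse build mm9. Which annotation and strand setting were used is not given in the sources used here. Every file lists 24015 genes, and its 5 summary categories were left out. Gene counts were 51.2 to 54.8% of all records, and reads aligned to several places, 33.4 to 36.5%, were not counted for any gene, so near-identical gene copies are under-counted.

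Tests used edgeR 4.0.16 in R 4.3.3 (filterByExpr by group, minimum count 10 and total 15, leaving 14220 genes). TMM factors and a robust quasi-likelihood fit of all 10 libraries with group as the only term left 5 residual degrees of freedom. Tests were two-sided, with Benjamini-Hochberg adjustment over all genes tested and 0.05 as the threshold. CPM scale each count by the library total over tested genes and its TMM factor, given as mean ± SD. Errors of log2 fold changes are SE from the F statistic. Intervals cover counting error only. Scripts were tested on simulated data.

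The members and lists were chosen with earlier results of these data known. All members were named. Of each list and comparison up to 4 genes with the largest fold among those that passed, a group mean of 5 CPM or more and no overlap, were eligible, as were 20 fixed genes (among them Srf, Elk1, Nab1, Dusp6 and Spry4), of which a selection is described. Results for a few genes are not reported here. Likeness was taken on log2 CPM (prior count 2). Promoters came from RefSeq (GRCm38.p6) and gene structure from GENCODE M21, and genes were matched by symbol.

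The alternatives tried were no filter, edgeR's RLE factors in place of TMM, the Wald test of DESeq2 1.42.0 and fits restricted to the groups compared. Further ones were a block for the title series, each library left out in turn and, added after seeing the data, Rn45s left out. Where a group was left with 1 library, it was assumed to vary like the others.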

Additional observations from a re-analysis of the deposited data

Results flagged for a closer look

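Egr1 and Fos went opposite ways in the 2 exposures to 2i, lower in all 4 library pairs of first 2i against serum and higher in all 4 pairs of second 2i against serum return. The share of all genes that did so was not counted. The second response minus the first was 7.99 for Egr1 and 5.88 for Fos on the log2 scale, a difference that was not tested because these levels chose the genes.

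Genes outside the 10 members had responses that differed between the exposures in edgeR's test of the difference (adjusted p under 0.05). Among ERK feedback genes the second response minus the first was 2.27 for Etv4, 2.20 for Spry4, 1.62 for Ccnd1 and 1.56 for Spred3. Among other immediate-early genes it was 1.16 for Plk3, 0.72 for Sgk1, 0.65 for Dusp1 and -1.36 for Btg2. Of these 8 genes, Dusp1, Plk3 and the 4 ERK feedback genes fell in first 2i against serum and Btg2 rose there, and the call for Dusp1 (adjusted p = 0.0247) was lost without replicate 2 of serum or replicate 1 of first 2i (up to 0.322). For factors at early promoters it was 0.93 for Srf, 0.53 for Elk4, 0.51 for Mkl1 and -0.44 for Creb1. For SRF's cytoskeletal targets it was 2.07 for Cyr61, 1.90 for Ctgf, 1.00 for Actb and -0.44 for Tpm1, and for the Egr corepressors 0.79 for Nab2 and -0.39 for Nab1. The calls for Elk4 (adjusted p up to 0.0599, without replicate 1 of first 2i or replicate 2 of serum return) and Nab1 (up to 0.0526, without replicate 2 of second 2i) were lost when those libraries were left out.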

How the results depend on the processing

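No log2 fold change of a member that was at least 2-fold changed sign under any alternative run. Smaller ones did, as for Fosb in first 2i against serum (-1.39 to 4.06) and Ier2 in second 2i against serum return (-0.08 to 0.14). In all, 1219 of 1292 member values moved by no more than the SE of the same log2 fold change with all libraries. That SE was wide for Fosb, at 1.01 in first 2i against serum and 1.39 in the difference between the responses. The 73 member values that moved by more did so with a library left out. With each library left out in turn, members at least 2-fold higher ranged over 0 to 1 in first 2i against serum (0 with all libraries), 3 to 6 in long against first 2i (5), 2 to 4 in serum return against long 2i (2) and 1 to 2 in serum return against serum (1). Members at least 2-fold lower ranged over 1 to 2 in serum return against long 2i (1), 0 to 2 in second 2i against serum return (2) and 0 to 2 in second 2i against serum (0). Genes changed in serum return against serum ranged over 2437 to 4477 (4407), and in second against first 2i over 3556 to 5438 (5357). Other immediate-early genes called higher in serum return against serum ranged over 3 to 7 (6), and called lower in the difference between the responses over 3 to 7 (6). With the title series as a replicate block, other immediate-early genes called higher in second 2i against serum return numbered 8 (5 without the block), and the cause was not tested. Libraries of the same title series deviated together in 9 of 10 pairs of groups above the limit of 0.1 (r 0.0994 to 0.168), which falls short of all 10, and pairing was not used. All 10 were above 0, so libraries of a series deviated together in every pair of groups, which the data show and the design does not state. The fit with group as the only term takes no account of this. The block changed no other count of members, genes or other immediate-early genes by over 1.5 times. Of the smaller lists described in second 2i, it gave 2 ERK feedback genes higher (1 without it) and 4 heat-shock genes lower (2) against serum return. Against first 2i it gave 2 ERK feedback genes (0), 6 of the ERK cascade (3) and 1 AP-1 or Egr partner (0) lower and 4 JNK and p38 genes higher (2). In the difference between the responses 1 ERK feedback gene was lower (0) and 2 factors at early promoters were lower (1). Outside second 2i Fosb had 0 to 8 counts and Egr2 0 to 2 counts in each library, so their levels there rest on few counts.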

Other observations

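Junb and Ier2 were higher in replicate 2 than in replicate 1 in all 5 groups, as were 11.8% of all tested genes, and 0 members were higher in replicate 1 in all 5 groups (11.7% of all genes). Most like the mean of the standardized levels of the 9 tested genes were Itga3 (r = 0.93), Egln1 (0.91), Zmiz1 (0.91), Tet2 (0.90) and Dgat2 (0.89), each with its highest group mean in serum or serum return. Egln1, an oxygen sensor, had 32.4 CPM in second 2i, 41.6 CPM in serum return and 15.4 CPM in first 2i.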
